A study of Gallus gallus with 54 samples.

Results

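STAR, CYP11A1, FDX1 and FDXR are the genes whose products carry out the first step of steroid hormone synthesis, the step from cholesterol to pregnenolone. They were taken by gene symbol from the transcript annotation of the libraries, where each symbol belonged to 1 locus, and they are 4 of the 26624 genes in the count table. On the Gallus_gallus-5.0 assembly, STAR (gene19569) lies at chr22:2288869-2291815 on the minus strand, with 1 transcript of 7 exons and 1760 bases. CYP11A1 (gene13793) lies at chr10:2491142-2495357 on the plus strand, with 1 transcript of 9 exons and 1756 bases. FDX1 (gene2664) lies at chr1:179596040-179612517 on the minus strand, with 1 transcript of 4 exons and 2710 bases. FDXR (gene18023) lies at chr18:10608619-10618937 on the minus strand, with 5 transcripts of up to 12 exons and 2915 bases.

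STAR, the steroidogenic acute regulatory protein, moves cholesterol to the inner membrane of the mitochondrion, where CYP11A1, the cholesterol side-chain cleavage enzyme, turns it into pregnenolone. CYP11A1 is a cytochrome P450 and needs electrons from NADPH, which ferredoxin reductase (FDXR) hands to ferredoxin (FDX1) and ferredoxin hands to CYP11A1. A 3-beta-hydroxysteroid dehydrogenase then makes progesterone from pregnenolone, and in the laying hen the granulosa of the largest follicle is the main source of the progesterone that precedes ovulation.

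The study fed White Leghorn hens of 35 to 40 weeks drugs that act on the androgen receptor, to ask how blocking or activating it alters follicle selection. The bic hens received 15 mg bicalutamide, an antagonist of the androgen receptor. The mes hens received 100 mg mestanolone, an androgenic steroid, and the NC hens received water alone. Feeding lasted 4 days, and withdrawal of 1 day preceded collection. The granulosa layer (GCs) and the theca layer (TCs) were taken from follicles of 6 mm, which have not been selected, from F5 follicles, early in the preovulatory hierarchy, and from F1 follicles, the largest and next to ovulate. RNA-Seq of these 3 treatments, 3 stages and 2 layers gave 18 groups of 3 libraries each, 54 in all. The groups have limits as models. In drug-fed hens, preovulatory follicles beyond the usual hierarchy were also named F1, and libraries of some groups share a hen: all 3 bic F1 GC libraries came from 1 hen, as did the first 2 NC F1 GC libraries and the first 2 bic F1 TC libraries. Libraries that shared a hen and a library number were summed to 1 sample in every test, so that bic F1 GCs count as 1 sample.

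Libraries held 33513156 to 65054906 counts, with a median of 46896540. The layer labels were checked against markers. The FPKM of 10 theca and muscle-wall genes (COL1A1, COL3A1, DCN, LUM and others) summed to 9.59 to 9689 in GCs, where the median was 29.4, and to 6670.1 to 9106 in TCs. Among the 27 GC libraries 4 passed 1000 on this sum, bic 6 mm library 1 at 1453, NC 6 mm libraries 1 and 3 at 1439 and 1580.2, and bic F5 library 2 at 9689. The last of these also had a granulosa marker sum (INHA, FSHR, FOXL2, ZP3, AMH and OCLN) of 250.2, below every TC library, so its markers go against its GC label. In TCs the granulosa marker sum ranged from 338 to 7426 with a median of 659, and it was highest in NC F1 library 1 at 7426, NC F5 library 3 at 3686 and bic F5 library 1 at 3655. AMH and OCLN did not mark GCs in these libraries, with medians in GCs of 3.09 and 1.5 FPKM, against 10.2 and 2.18 FPKM in TCs, whereas INHA did, with a median of 987 FPKM in GCs and 1.52 FPKM in TCs. Calls of the 4 genes that turn on these libraries are given with and without them. Where the GC libraries of high theca markers are left out, bic 6 mm library 2 is left out too, although its theca marker sum was 145. This leaves 1 bic GC hen at 6 mm. Library 2 had AMH at 0.587 FPKM and ZP3 at 9280 FPKM. In bic 6 mm libraries 1 and 3 AMH was 213 and 643 FPKM and ZP3 2081 and 1801 FPKM. The sum of 6 oocyte genes was 3.77 in library 2, against 39.9 and 50.1 in libraries 1 and 3. In these markers library 2 was thus unlike the other bic 6 mm GC libraries. Oocyte markers (the sum of 6 genes) also differed by stage in GCs, with 24.6 to 139 in NC 6 mm GCs and 0.265 to 2.30 in NC F5 GCs, and 32.0 to 42.8 in mes 6 mm GCs and 2.52 to 3.73 in mes F5 GCs, and their part in the 6 mm to F5 changes was not tested.

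Levels are given in FPKM, fragments scaled by transcript length and sequencing depth, which allows genes of different length to be compared. STAR spanned the widest range of the 4 genes, with 0.820 to 4061 FPKM in GCs and 0.375 to 1283 FPKM in TCs. CYP11A1 spanned 7.72 to 3445 FPKM in GCs and 2.33 to 1320.3 FPKM in TCs. FDXR spanned 11.7 to 128 FPKM over both layers, and FDX1 8.57 to 35.8 FPKM. The highest library exceeded the lowest by 4951-fold for STAR and 446-fold for CYP11A1 within GCs, against 10.0-fold for FDXR and 3.77-fold for FDX1. In NC F1 GCs, STAR ranked between the fifth and the eighth highest of all genes by FPKM and CYP11A1 ranked 12 to 20.

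**Figure D1:**
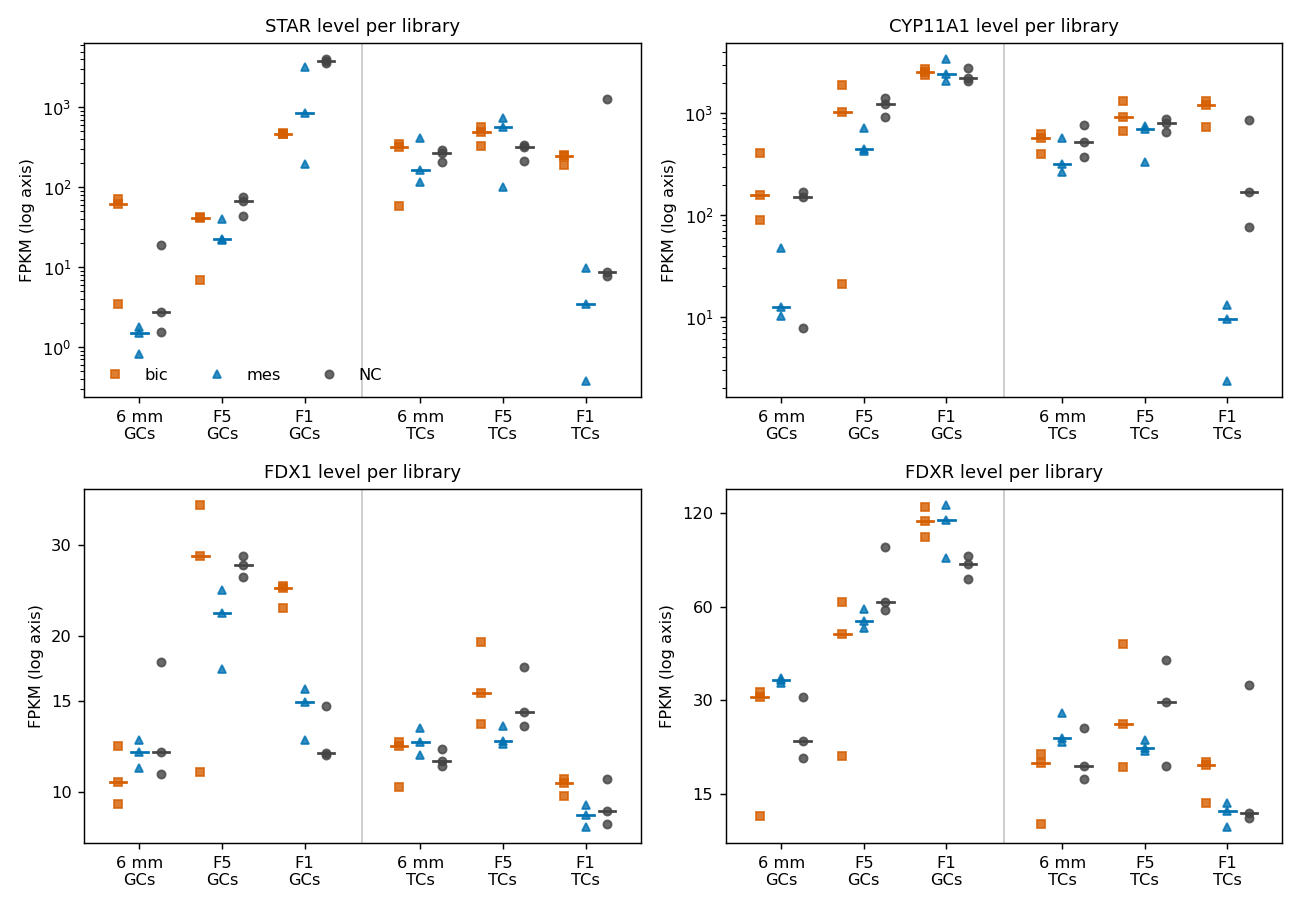
FPKM (log axis) of STAR, CYP11A1, FDX1 and FDXR in each of the 54 libraries, by layer, stage (6 mm, F5, F1) and treatment (bic, mes, NC); each point is a library and bars are group medians. STAR and CYP11A1 reached 4061 and 3445 FPKM in F1 GCs and lay between 0.375 and 13.1 FPKM in the 3 mes F1 TC libraries, and FDX1 stayed between 8.57 and 35.8 FPKM throughout.

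Ordered by the mean over libraries, STAR was highest in NC F1 GCs (3794 FPKM), then in mes F1 GCs (1421 FPKM), whose highest library lay below the lowest of NC F1 GCs, and then in bic F1 GCs (470.3 FPKM), which lay within the range of mes F1 GCs. The share of all genes without overlap between these groups was not counted. The 8 groups that followed were all TCs, between 468 and 229.5 FPKM, and each overlapped its neighbours in this order. The lowest groups were NC 6 mm GCs (7.67 FPKM), mes F1 TCs (4.5 FPKM) and mes 6 mm GCs (1.37 FPKM). For CYP11A1 the order began with mes, bic and NC F1 GCs (2662, 2539 and 2361 FPKM), whose libraries overlapped, and ended with mes 6 mm GCs (23.5 FPKM) and mes F1 TCs (8.31 FPKM). FDX1 was highest in NC F5 GCs (27.3 FPKM) and FDXR in bic F1 GCs (113 FPKM), and both were lowest in mes F1 TCs (9.03 and 12.9 FPKM).

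The first comparison was between stages in the GCs of NC hens. Here and below, log2 fold changes with their standard errors (SE) come from edgeR's quasi-likelihood test, p-values are adjusted over all genes of a comparison by the Benjamini-Hochberg procedure, and a gene was called changed at an adjusted p of at most 0.05 with a mean of at least 1 FPKM in a compared group. In NC GCs, 7 of the 12 tests of the 4 genes over 3 pairs of stages passed. Of all genes tested, 9.11% were called between F5 and 6 mm, where 2 of the 4 passed, 29.6% between F1 and F5, where 2 passed, and 29% between F1 and 6 mm, where 3 passed.

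STAR read 18.8, 1.52 and 2.73 FPKM in NC GCs at 6 mm, 43.1, 67.9 and 75.2 FPKM at F5, and 3563, 4061 and 3758 FPKM at F1. The stages did not overlap, and the gap between F1 and F5 was far wider than that between F5 and 6 mm. STAR rose at F1 over F5 by 6.39 ± 0.35 on the log2 scale (SE, 2 and 3 hens, 83.9-fold, adjusted p = 0.000787), and this call held under every alternative run. In bulk layers, fewer cells of a type and less RNA per cell cannot be told apart. STAR was also called higher at F1 than at 6 mm (log2 fold change 9.78 ± 1.45, adjusted p = 0.00834), although with the hen as a block the adjusted p was 0.0544. F5 against 6 mm did not pass (log2 fold change 3.32 ± 0.98, adjusted p = 0.0754). It passed without NC 6 mm library 1 (5.18, adjusted p = 0.0245), which has the highest STAR of its group and a theca marker sum of 1439, against 75.6 and 1580.2 in the other two.

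CYP11A1 read 152, 169 and 7.72 FPKM in NC GCs at 6 mm, 1229.8, 1429 and 929 FPKM at F5, and 2061, 2229.9 and 2792 FPKM at F1. At 6 mm it was thus already an abundant transcript in the libraries of 2 of the 3 hens. Of these, library 1 had a theca marker sum of 1439 and library 2 of 75.6. Library 3, the low one, had a sum of 1580.2. The part of theca RNA in these CYP11A1 values was not tested. It rose at F1 over F5 by 1.51 ± 0.28 (SE, 2.84-fold, adjusted p = 0.0115) and over 6 mm by 5.32 ± 1.26 (adjusted p = 0.0296). Without F1 library 3 the F1 over F5 change was 1.32 (adjusted p = 0.0735), it did not pass in the fit over all groups of the layer (adjusted p = 0.397), and the F1 over 6 mm call was lost for some of the left-out libraries (adjusted p 0.0527 to 0.0977) and with the hen as a block (6.96, adjusted p = 0.129). F5 over 6 mm was 3.75 ± 1.04 and did not pass (adjusted p = 0.0668), but passed without 6 mm library 3 (3.17, adjusted p = 0.0484).

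FDX1 read 10.9, 17.8 and 12.0 FPKM in NC GCs at 6 mm, 26.0, 28.5 and 27.4 FPKM at F5, and 11.9, 11.8 and 14.7 FPKM at F1. Its FPKM were highest at F5, and the 6 mm and F1 values overlapped. FDX1 rose at F5 over 6 mm by 1.34 ± 0.24 (SE, 2.52-fold, adjusted p = 0.0284), a call lost under 5 of the libraries left out in turn (adjusted p 0.0614 to 0.117), in the fit over all groups of the layer (adjusted p = 0.0573) and without the GC libraries of high theca markers (0.86, adjusted p = 0.269, 1 hen left at 6 mm). F1 against F5 gave -0.57 ± 0.20 (adjusted p = 0.0784). Between these stages TMM factors and plain library sizes differed at the median of all genes by 0.34 (F5 over 6 mm), 0.49 (F1 over F5) and 0.90 (F1 over 6 mm) on the log2 scale. Scaled by library size, FDX1 gave -1.06 at F1 over F5 and passed (adjusted p = 0.0131), and its F1 over 6 mm change was -0.053, against 0.83 with TMM.

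FDXR read 19.6, 30.8 and 22.2 FPKM in NC GCs at 6 mm, 62.2, 93.3 and 58.6 FPKM at F5, and 87.6, 82.7 and 73.7 FPKM at F1. The F5 and F1 libraries overlapped and all lay above the 6 mm libraries. FDXR rose at F5 over 6 mm by 2.06 ± 0.28 (SE, 4.18-fold, adjusted p = 0.0172) and at F1 over 6 mm by 2.59 ± 0.28 (6.03-fold, adjusted p = 0.00397; with the hen as a block 2.49, adjusted p = 0.0544). The F5 call was lost under 4 of the left-out libraries (adjusted p 0.0596 to 0.0724) and without the GC libraries of high theca markers (1.68, adjusted p = 0.202). F1 against F5 gave 0.46 ± 0.28 (adjusted p = 0.245), or -0.025 by library size. In NC GCs, then, the called changes of the electron carriers lay between 6 mm and F5 and the largest STAR change between F5 and F1.

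**Figure D2:**
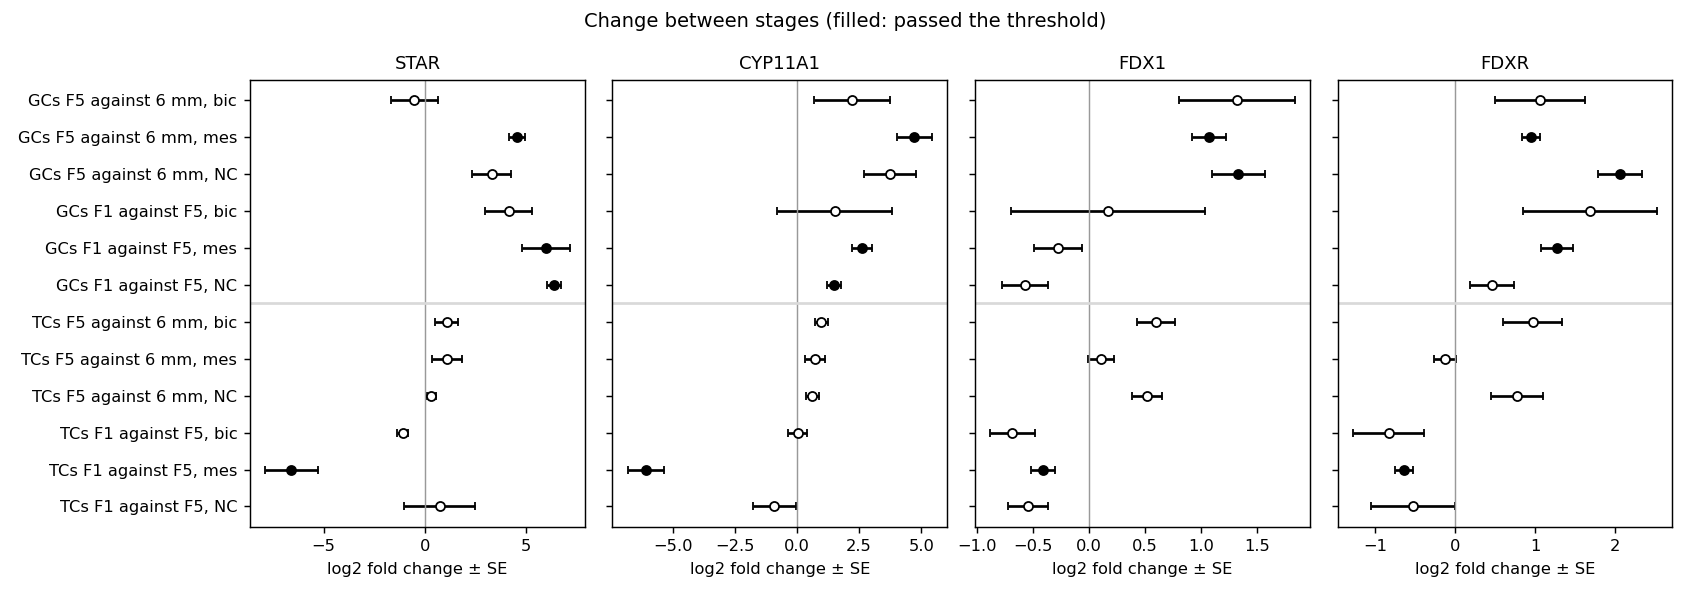
Log2 fold change of the later over the earlier stage (x axis, points with SE bars) for the 4 genes in GCs and TCs of each treatment; filled points passed the call and open points did not. The filled points of STAR for F1 over F5 lie at 6.39 (NC GCs), 6.00 (mes GCs) and -6.60 (mes TCs). For F5 over 6 mm the filled point of STAR lies at 4.59 (mes GCs).

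In NC TCs no test of the 12 passed with edgeR (2 at an unadjusted p under 0.05, with 1 call each by DESeq2 and limma-voom), while 7.63%, 6.2% and 18.4% of all genes were called for F5 over 6 mm, F1 over F5 and F1 over 6 mm. STAR read 208, 294 and 269 FPKM at 6 mm, 215, 337 and 322 FPKM at F5, and 1283, 7.85 and 8.75 FPKM at F1. The theca of 6 mm and F5 follicles thus held abundant STAR in every hen, and the 3 F1 libraries split. F1 library 1, with 1283 FPKM, is the TC library with the granulosa marker sum of 7426, against 1479.7 and 1284 in the other F1 libraries. The part of granulosa RNA in its STAR value was not tested. With all libraries the F1 over F5 change was 0.75 ± 1.75 (adjusted p = 0.838), and without library 1 it was -5.06 (adjusted p = 0.0211). The F1 over 6 mm change was 1.05 ± 1.73 with it and -4.73 without it (adjusted p = 0.705 and 0.00419).

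CYP11A1 in NC TCs read 768, 526 and 373 FPKM at 6 mm, 649.7, 796 and 880.0 FPKM at F5, and 871, 76.5 and 168 FPKM at F1, where library 1 was again the high one. F1 over F5 was -0.90 ± 0.85 (adjusted p = 0.577), and -2.59 without that library (adjusted p = 0.0294). F1 over 6 mm was -0.30 ± 0.86 (adjusted p = 0.833), and -1.96 without it (adjusted p = 0.0400). FDX1 in NC TCs stayed between 8.70 and 17.4 FPKM and FDXR between 12.5 and 40.6 FPKM. The highest FDX1 and FDXR of NC TCs, 17.4 and 40.6 FPKM, came from F5 library 3, one of the TC libraries with high granulosa markers.

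The second question was which layer carried the start of the pathway at each stage. In NC hens 6 of 12 tests of GCs against TCs passed, with 27%, 36% and 37% of all genes called at 6 mm, F5 and F1. STAR was lower in GCs than in TCs at 6 mm (mean 7.67 FPKM in GCs, 257 FPKM in TCs, log2 fold change -5.02 ± 1.09, adjusted p = 0.0200) and at F5 (62.1 FPKM in GCs, 292 FPKM in TCs, -2.21 ± 0.30, adjusted p = 0.00203). The 6 mm call was lost when any one TC library was left out (adjusted p 0.0575 to 0.0605). Without the GC libraries of high theca markers, which leaves 1 GC hen at 6 mm, STAR gave -7.47. The F5 call was lost in the fit over all groups (-2.21, adjusted p = 0.179). At F1 the order of the means turned, to 3794 FPKM in GCs and 433 FPKM in TCs, yet the test did not pass (3.44 ± 2.27, adjusted p = 0.265), with TC libraries between 7.85 and 1283 FPKM. Without TC library 1 the F1 difference was 9.34 (adjusted p = 0.00290), and with the hen as a block it was 9.26 (adjusted p = 0.0289). Hen 1, the source of TC library 1, has no GC library at F1. The block fit therefore also sets TC library 1 aside and is not a separate check.

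CYP11A1 passed in none of the 3 NC layer tests, with -2.33 ± 1.02 at 6 mm (adjusted p = 0.131), 0.66 ± 0.26 at F5 (adjusted p = 0.0861) and 3.07 ± 1.11 at F1 (adjusted p = 0.0783). At F1 it passed without TC library 1 (4.85, adjusted p = 0.00606) and with the hen as a block (4.85, adjusted p = 0.0289), which again sets that library aside. FDX1 was higher in GCs at F5 (0.89 ± 0.16, adjusted p = 0.00555) and at F1 (0.87 ± 0.20, adjusted p = 0.0250), although by library size the F1 difference was 0.48 (adjusted p = 0.106) and with the hen as a block 0.99 (adjusted p = 0.0921). The F1 call of FDX1 was lost under 4 of the samples left out (adjusted p 0.0534 to 0.0858). FDXR was higher in GCs at F5 (1.48 ± 0.36, adjusted p = 0.0177) and F1 (2.48 ± 0.56, adjusted p = 0.0240). Its F5 call was lost without GC library 2 (adjusted p = 0.0538) or TC library 2 (adjusted p = 0.0671), and its F1 call under 4 of the samples left out (adjusted p 0.0542 to 0.0704). Without NC F5 TC library 3, of high granulosa markers, FDX1 and FDXR at F5 were 1.00 and 1.82 (adjusted p = 0.0108 and 0.0162). At 6 mm neither electron carrier differed beyond the spread between hens (0.21 ± 0.22 and 0.33 ± 0.22, adjusted p = 0.499 and 0.279). Without the GC libraries of high theca markers, which leaves 1 GC hen, CYP11A1 (-1.80, adjusted p = 0.0418) and FDX1 (0.54, adjusted p = 0.0424) passed at 6 mm. With all libraries of NC hens the electron carriers were thus higher in GCs from F5 on, and STAR was higher in TCs up to F5.

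**Figure D3:**
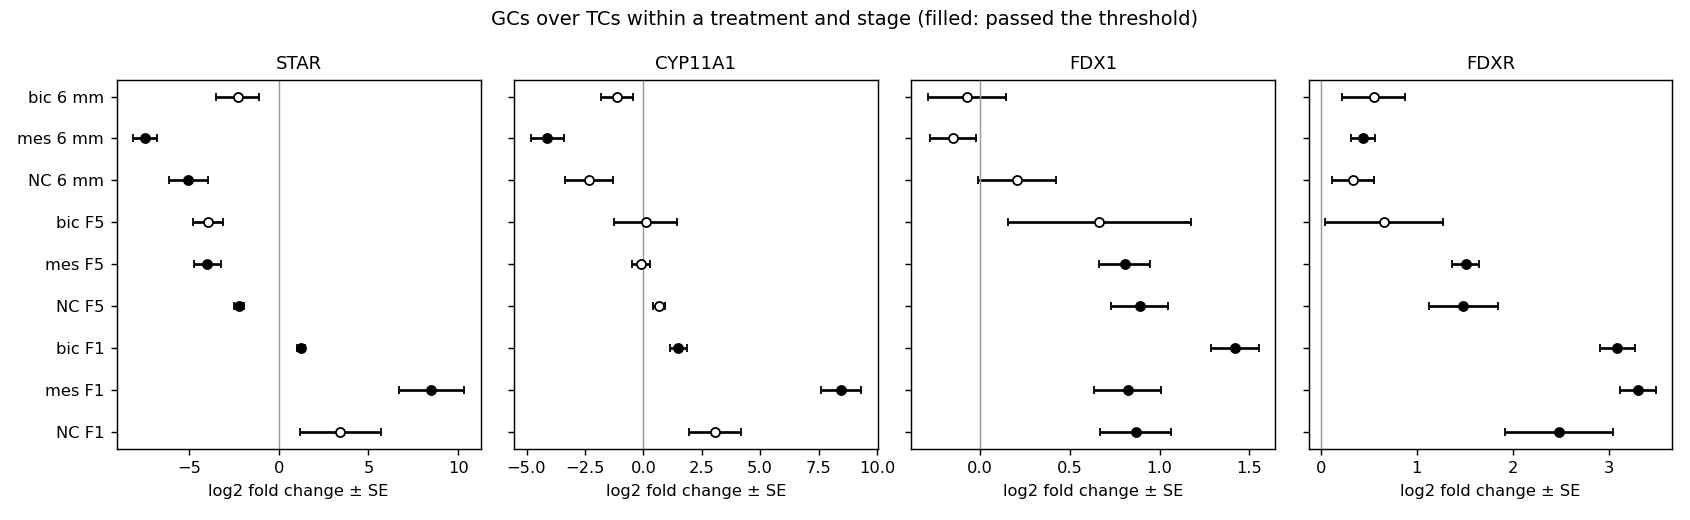
Log2 fold change of GCs over TCs (x axis, points with SE bars) for the 4 genes at each stage of each treatment; filled points passed the call. Points to the left of 0 are lower in GCs, as STAR is at 6 mm and F5, and points to the right are higher in GCs, as all 4 genes are in bic and mes F1 follicles.

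Whether stage changes differed between the layers was tested as an interaction in NC hens. None of the 8 tests passed, with 9.57% (F5 over 6 mm) and 19.3% (F1 over F5) of all genes called. For F1 over F5 the GC change exceeded the TC change by 5.69 ± 2.26 for STAR (adjusted p = 0.102) and by 2.45 ± 1.09 for CYP11A1 (adjusted p = 0.137). Without NC F1 TC library 1 these differences were 11.50 (adjusted p = 4.1e-05) and 4.14 (adjusted p = 0.00141). For F5 over 6 mm they were 2.84 ± 1.06 for STAR (adjusted p = 0.115) and 3.01 ± 1.11 for CYP11A1 (adjusted p = 0.110). Without the GC libraries of high theca markers, which leaves 1 GC hen at 6 mm, they were 5.23 and 2.42.

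**Figure D4:**
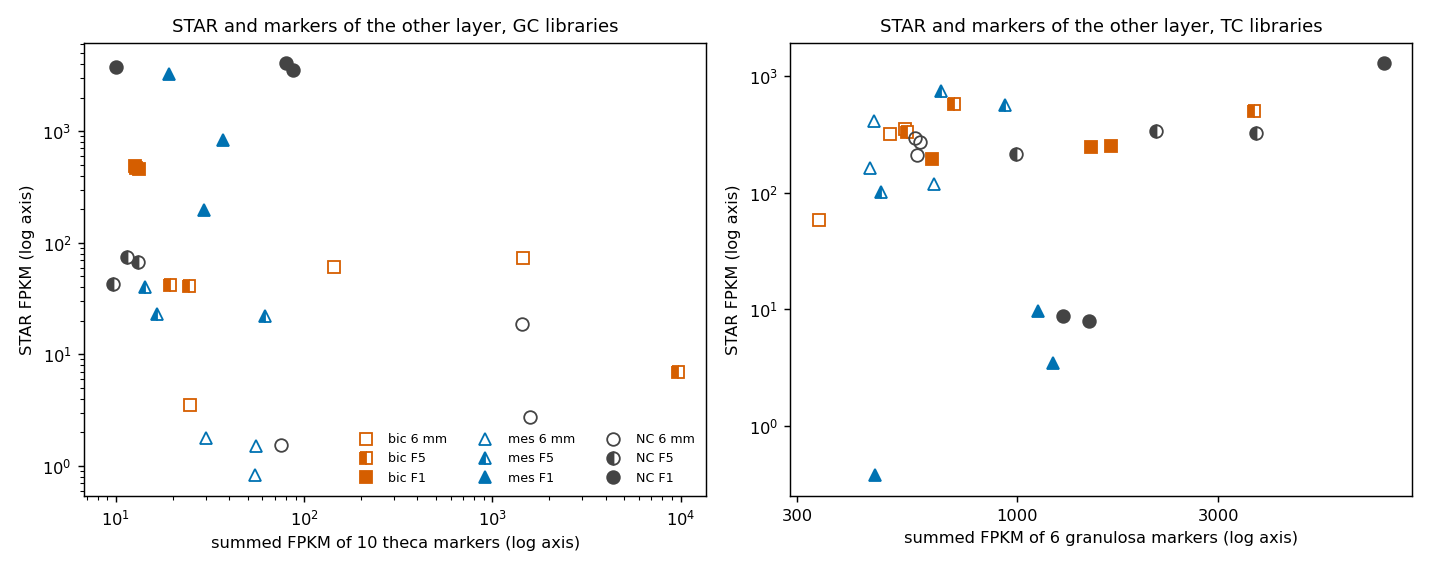
STAR in each library (FPKM, log axis) against the summed FPKM of the markers of the other layer (log axis), with theca markers for GC libraries on the left and granulosa markers for TC libraries on the right. The GC library at 9689 (bic F5 library 2) and the TC library at 7426 (NC F1 library 1) stand apart from their groups.

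In mes hens, GC libraries of all 3 stages were free of such theca signal, with sums of 14.2 to 61.6, and 7 of the 8 stage tests passed (24.6% of all genes called for F5 over 6 mm, 18.2% for F1 over F5). STAR read 0.820, 1.79 and 1.51 FPKM in mes GCs at 6 mm, 22.8, 40.3 and 22.1 FPKM at F5, and 195, 3225 and 842 FPKM at F1. The stages did not overlap, and the F1 libraries spread widely. STAR rose at F5 over 6 mm by 4.59 ± 0.40 (SE, n = 3 hens each, 24.1-fold, adjusted p = 0.00101) and at F1 over F5 by 6.00 ± 1.18 (64.1-fold, adjusted p = 0.0223). The F1 call was lost without any one of the F5 libraries (adjusted p 0.0751 to 0.0942) and with the hen as a block (5.20, adjusted p = 0.0531).

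CYP11A1 in mes GCs read 12.4, 47.8 and 10.2 FPKM at 6 mm, 449, 726 and 424 FPKM at F5, and 2074, 3445 and 2466 FPKM at F1. It rose at both steps, by 4.73 ± 0.71 at F5 (SE, 26.5-fold, adjusted p = 0.00543) and by 2.62 ± 0.40 at F1 (6.13-fold, adjusted p = 0.0129). FDX1 was called higher at F5 than at 6 mm (1.07 ± 0.15, adjusted p = 0.00442) and at F1 gave -0.27 ± 0.22 (adjusted p = 0.382). FDXR read 34.2, 35.4 and 35.0 FPKM at 6 mm, 51.2, 58.9 and 53.9 FPKM at F5, and 128, 86.4 and 114 FPKM at F1, and it rose at both steps (0.95 ± 0.11, adjusted p = 0.00255, and 1.28 ± 0.20, adjusted p = 0.0143). With the hen as a block the F1 change of FDXR was 1.27 (adjusted p = 0.0612). Without F5 library 1 or 2 the F1 calls of CYP11A1 (adjusted p = 0.0702 and 0.0579) and FDXR (adjusted p = 0.0706 and 0.0748) were lost. In the fit over all groups of the layer none of the 4 genes passed at F5 over 6 mm, with STAR at 4.57 (adjusted p = 0.0762) and CYP11A1, FDX1 and FDXR at 4.71, 1.05 and 0.92 (adjusted p = 0.0770, 0.147 and 0.254), and CYP11A1 did not pass at F1 over F5 (adjusted p = 0.135).

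In mes TCs, none of the 4 genes was called by edgeR at F5 over 6 mm, where 0.0708% of all genes were (none at an unadjusted p under 0.05, and none called by DESeq2 or limma-voom), and all 4 fell at F1 against F5, where 15.1% of all genes were called in either direction and 6.9% as lower. STAR read 118, 408 and 164 FPKM at 6 mm, 102, 741 and 561 FPKM at F5, and 0.375, 9.65 and 3.48 FPKM at F1. CYP11A1 read 268, 574 and 321 FPKM at 6 mm, 332, 758 and 702 FPKM at F5, and 2.33, 13.1 and 9.52 FPKM at F1. For both genes every F1 library lay far below every F5 library. STAR fell by 6.60 on the log2 scale (SE 1.3, 3 hens each, adjusted p = 0.0200) and CYP11A1 fell by 6.07 (SE 0.73, adjusted p = 0.00715). The CYP11A1 call held under every alternative run, and the STAR call was lost without F1 library 3 (adjusted p = 0.0673) and without F5 library 2 (adjusted p = 0.0518).

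The electron carriers moved little in the same libraries. FDX1 read 8.57, 9.45 and 9.06 FPKM in mes F1 TCs, against 13.4, 12.4 and 12.6 FPKM in mes F5 TCs (log2 fold change -0.41 ± 0.11, adjusted p = 0.0428), and the call was lost whichever library was left out (adjusted p 0.0709 to 0.155) and with no filter (adjusted p = 0.0561). FDXR read 13.2, 11.7 and 14.0 FPKM in mes F1 TCs, against 21.1, 20.6 and 22.3 FPKM in mes F5 TCs (-0.64 ± 0.11, adjusted p = 0.0143), and the call was lost without F1 library 1 or 2 (adjusted p = 0.0687 and 0.0615) and in the fit over all groups of the layer (adjusted p = 0.277). In mes F1 TCs the theca marker sum was 7146 to 7979, within the range of the other TC libraries, and the granulosa sum 460.4 to 1217. The sum of 5 blood genes was 795 to 1045 in mes F1 TCs, against 278 to 363 in mes F5 TCs. The sum of 4 leukocyte genes was 69.5 to 87.2 in mes F1 TCs, against 32.5 to 36.5 in mes F5 TCs, and that of 5 endothelium genes 224 to 319.8 in mes F1 TCs, against 113 to 172 in mes F5 TCs. The part of these cells in the result was not tested.

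Between the layers of mes hens 10 of 12 tests passed, with 47.1%, 46.8% and 37.6% of all genes called at 6 mm, F5 and F1. STAR was lower in GCs at 6 mm (-7.44 ± 0.65, adjusted p = 0.000185) and at F5 (-3.98 ± 0.75, adjusted p = 0.00474) and higher in GCs at F1 (8.50 ± 1.82, 361-fold, adjusted p = 0.0117). CYP11A1 was lower in GCs at 6 mm (-4.10 ± 0.72, adjusted p = 0.00325), gave -0.10 ± 0.37 at F5 (adjusted p = 0.835) and was higher at F1 (8.47 ± 0.86, 355-fold, adjusted p = 0.000854). At 6 mm, then, both genes were higher in TCs and at F1 both were higher in GCs. FDX1 was higher in GCs at F5 (0.81 ± 0.14, adjusted p = 0.00384) and F1 (0.82 ± 0.18, adjusted p = 0.0140). FDXR was higher in GCs at all 3 stages (0.44 ± 0.13, 1.51 ± 0.14 and 3.30 ± 0.19, adjusted p = 0.0254, 0.000285 and 0.000180). Calls were lost for FDXR at 6 mm without GC library 3 or TC libraries 2 or 3 (adjusted p 0.0624 to 0.0780) and in the fit over all groups (adjusted p = 0.283), for STAR at F1 without TC library 3 (8.32, adjusted p = 0.0556) and for FDX1 at F1 without TC library 1 or 3 (adjusted p = 0.0666 and 0.0612).

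In bic GCs no stage test of the 8 passed with edgeR, and none of the 16744 and 18802 genes tested did either, 0% for F5 over 6 mm and for F1 over F5. Of the 8, an unadjusted p under 0.05 was seen in 2, and calls were made in 1 by DESeq2 and in 3 by limma-voom. STAR read 72.3, 61.2 and 3.49 FPKM at 6 mm, 41.0, 6.88 and 42.0 FPKM at F5, and 460.4, 485 and 466 FPKM at F1, the last 3 from 1 hen. CYP11A1 read 159, 412 and 88.6 FPKM at 6 mm, 1040.0, 21.0 and 1919 FPKM at F5, and 2361, 2709 and 2546 FPKM at F1. In each gene F5 library 2, whose markers go against the GC label, was the lowest of its group. The 6 mm library 2, with the highest CYP11A1 of its group, had AMH and ZP3 levels unlike those of 6 mm libraries 1 and 3. For F1 over F5, with 1 hen at F1, STAR changed by 4.17 ± 1.16 with all libraries (adjusted p = 0.778). Without F5 library 2 that change was 3.67. Without bic 6 mm libraries 1 and 2 and F5 library 2, which leaves 1 hen at 6 mm, STAR at F5 over 6 mm was 3.76. With all libraries the change was -0.52 ± 1.17 (adjusted p = 0.9996).

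FDX1 in bic GCs read 12.3, 10.5 and 9.49 FPKM at 6 mm, 28.5, 11 and 35.8 FPKM at F5, and 24.7, 22.7 and 25.0 FPKM at F1. FDXR read 30.7, 12.7 and 31.9 FPKM at 6 mm, 48.9, 19.9 and 62.2 FPKM at F5, and 113, 126 and 101.0 FPKM at F1. Leaving F5 library 2 aside, the other F5 libraries of both genes were above all 6 mm libraries. The share of all genes without such overlap was not counted, and with all libraries neither gene passed at F5 over 6 mm. In 6 mm library 2, where FDXR was lowest, the sum of blood genes was 243, against 7.85 and 2.75 in the other two, and its part in the FDXR value was not tested.

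In bic TCs no stage test of the 8 passed with edgeR either (5 at an unadjusted p under 0.05, 4 called by DESeq2 and 2 by limma-voom), with 12.8% and 2.34% of all genes called for F5 over 6 mm and F1 over F5. STAR read 353, 58.5 and 319 FPKM at 6 mm, 497, 570.2 and 333 FPKM at F5, and 244, 252 and 193 FPKM at F1, and CYP11A1 read 1320.3, 1223 and 733 FPKM at F1. Thus both genes were abundant in the F1 theca of bic hens, at 193 FPKM or more. The F1 over F5 change of STAR was -1.09 ± 0.27 (adjusted p = 0.0896) and that of CYP11A1 0.03 ± 0.37 (adjusted p = 0.974). Between the bic layers 4 of 12 tests passed, all at F1, where 37.8% of all genes were called (2.65% at 6 mm and 0.012% at F5): STAR 1.26 ± 0.21, CYP11A1 1.5 ± 0.37, FDX1 1.42 ± 0.13 and FDXR 3.08 ± 0.18 on the log2 scale (1 and 2 hens, adjusted p = 0.0170, 0.0428, 0.00447 and 0.00179). The lone GC hen is assumed in this fit to vary like the TC hens. In the fit over all groups STAR and CYP11A1 did not pass (adjusted p = 0.616 and 0.397), and by library size the CYP11A1 difference was 1.35 (adjusted p = 0.0614). Without bic 6 mm GC libraries 1 and 2, which leaves 1 GC hen at 6 mm, STAR was -6.20 and CYP11A1 -2.71 there. Without bic F5 GC library 2, STAR (-3.44) and FDX1 (1.04) passed at F5.

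The third question was whether the drugs altered these genes at a given stage. Of the 12 tests of bic against NC in GCs 1 passed, STAR at F1, where 1.17% of all genes were called (0% at 6 mm and F5). STAR gave 2.73 ± 1.37 at 6 mm and -1.07 ± 0.69 at F5 (adjusted p = 0.785 and 0.588). The F5 group includes bic library 2, whose markers go against its GC label, so the 0% is not read as no change. STAR read 460.4, 485 and 466 FPKM in bic F1 GCs, against 3563, 4061 and 3758 FPKM in NC F1 GCs, and the groups lay far apart. It fell by 3.20 on the log2 scale (SE 0.21, 0.109-fold, adjusted p = 0.0498), with 1 bic hen against 2 NC hens, so that the spread between bic hens is not known and is assumed to be that of the NC hens. With one fit over all groups of the layer the change was -3.26 and did not pass (adjusted p = 0.308). CYP11A1 in the same libraries read 2361, 2709 and 2546 FPKM in bic F1 GCs, against 2061, 2229.9 and 2792 FPKM in NC F1 GCs, and these overlapped (-0.16 ± 0.26, adjusted p = 0.723, 0.049 by library size). FDX1 gave 0.67 ± 0.31 (adjusted p = 0.271) and FDXR 0.44 ± 0.26 (adjusted p = 0.351).

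None of the 12 tests of mes against NC in GCs passed with edgeR (0% of all genes at each stage, 6 of the 12 with an unadjusted p under 0.05, 3 called by DESeq2). At F5, STAR read 22.8, 40.3 and 22.1 FPKM in mes GCs, against 43.1, 67.9 and 75.2 FPKM in NC GCs, and CYP11A1 read 449, 726 and 424 FPKM in mes GCs, against 1229.8, 1429 and 929 FPKM in NC GCs. Neither gene overlapped between these groups, but neither test passed (-1.19 ± 0.31 and -1.23 ± 0.29, adjusted p = 0.282 and 0.258). The share of all genes without overlap here was not counted. At F1, STAR in mes GCs gave -1.57 ± 1.11 against NC (adjusted p = 0.443) and CYP11A1 -0.12 ± 0.40 (adjusted p = 0.883).

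In TCs no member test passed with edgeR for bic (1 of 12 with an unadjusted p under 0.05, 0.0296%, 0% and 0% of all genes called at 6 mm, F5 and F1, none called by DESeq2) or for mes (2 of 12, 0.0354%, 0.0122% and 0%, 1 called by DESeq2). In mes F1 TCs, STAR and CYP11A1 gave -6.75 ± 2.50 and -5.63 ± 1.22 against NC (adjusted p = 0.548 and 0.470). Without NC F1 TC library 1 the STAR difference was -0.93 (adjusted p = 0.920) and that of CYP11A1 -3.93 (adjusted p = 0.380). DESeq2 and the fit over all groups called CYP11A1 lower (adjusted p = 0.000400 and 0.00411). In bic F1 TCs STAR gave -1.18 ± 2.22 (adjusted p = 0.849), and 4.68 without NC library 1: STAR at 244, 252 and 193 FPKM in bic F1 TCs lay between NC library 1 (1283 FPKM) and NC libraries 2 and 3 (7.85 and 8.75 FPKM).

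Stage changes under each drug were also compared with those of NC as interactions. None of these 32 tests passed. Of all genes, 0.689% (bic GCs), 0.0224% (bic TCs) and 0.498% (mes GCs) were called for F1 over F5 and 0% in the other 5 comparisons. Over all 40 interaction tests the unadjusted p was under 0.05 in 12, with 4 calls by DESeq2 and 6 by limma-voom. For F1 over F5, the mes TC change was below the NC TC change for CYP11A1 (-5.21, adjusted p = 1.00). In bic GCs, STAR changed at F1 over F5 by -2.20 relative to NC GCs (adjusted p = 0.440), and by -2.63 without bic F5 library 2 (adjusted p = 0.0298).

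Because FPKM are per length, levels of the 4 genes can also be set against each other within a library. STAR over CYP11A1 was above 1 in 3 of 27 GC libraries and 1 of 27 TC libraries. The 3 GC libraries were those of NC F1, at 1.73, 1.82 and 1.35, while bic F1 GCs were at 0.195, 0.179 and 0.183, mes F1 GCs at 0.0941, 0.936 and 0.341, and NC F5 GCs at 0.0351, 0.0475 and 0.0810. CYP11A1 overlapped between F1 GCs of the 3 treatments, and STAR overlapped between bic and mes but not between either and NC. The share of all genes without such overlap was not counted. The bic F1 GCs came from 1 hen and those of NC from 2 hens. The edgeR test of STAR in mes against NC F1 GCs did not pass (adjusted p = 0.443). CYP11A1 over FDX1 was 95.5, 119 and 102 in bic F1 GCs, 164, 218 and 165 in mes F1 GCs, and 173, 189 and 190.1 in NC F1 GCs, against 47.4, 50.1 and 33.9 in NC F5 GCs. In mes F1 TCs it was 0.272, 1.38 and 1.05, with the lowest single library of all. In mes 6 mm GCs the ratio was 0.983, 4.00 and 0.918, with a lower median, and in NC 6 mm GC library 3 it was 0.645. FDXR exceeded FDX1 in all 54 libraries, by 1.21 to 10.1-fold in GCs (median 2.97) and 1.17 to 3.17-fold in TCs.

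**Figure D5:**
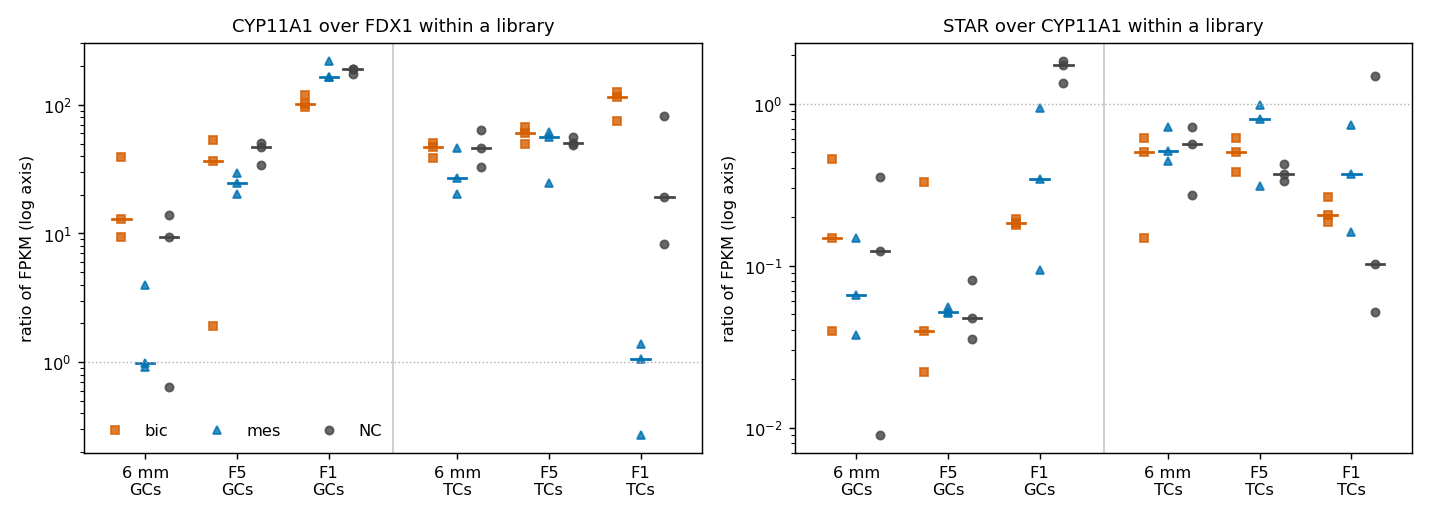
Ratio of FPKM within each library (log axis), CYP11A1 over FDX1 and STAR over CYP11A1, by layer, stage and treatment; each point is a library. Among GC libraries, STAR over CYP11A1 exceeds 1 only in the 3 NC F1 libraries (1.73, 1.82 and 1.35).

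A further ferredoxin locus bears on how the FDX1 values read. FDX1L (gene7470, chr4:177308-180789, plus strand) is annotated as ferredoxin 1-like, and its FPKM exceeded those of FDX1 in 24 of 27 GC libraries and 22 of 27 TC libraries. In NC GCs it read 11.2, 20.8 and 15.0 FPKM at 6 mm, 292, 426 and 423 FPKM at F5, and 308, 314 and 290.2 FPKM at F1. It rose at F5 over 6 mm by 4.93 ± 0.35 (SE, adjusted p = 0.00613), where FDX1 rose by 1.34 in the same libraries, and the difference between these changes was not tested. In mes TCs it read 0.111, 2.07 and 1.85 FPKM at F1, against 77.1, 131 and 180.0 FPKM at F5 (-6.49 ± 0.88, adjusted p = 0.00805). In bic F1 GCs it was at 1046, 1136 and 1101 FPKM. Of the ferredoxin transcripts FDX1L followed CYP11A1 more closely, with a Pearson r of 0.876 against 0.514 for FDX1 (log2(FPKM + 1) over the 54 libraries, which share hens, layers and stages).

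By the same measure, with up to 5 of the most alike genes named for each member among 9875 genes, STAR was most like ASH2L (r = 0.856), DDHD2 (0.847), CYP11A1 (0.838), TMEM254 (0.833) and LHCGR, the luteinizing hormone receptor (0.833). CYP11A1 was most like FDX1L (0.876), STAR (0.838), LHCGR (0.830) and LOC101748017 (0.827). FDX1 was most like EPHX1L (0.907), NDST1 (0.889), ASB9 (0.881), AIFM2 (0.871) and BBOX1 (0.861), and FDXR most like PFKL (0.974), GRIN2C (0.943), FBXW11 (0.935), ZRANB1 (0.931) and SMAD2 (0.928). Among the members, STAR and CYP11A1 were the most alike pair, with 0.838 over the 54 libraries, 0.844 within GCs and 0.914 within TCs. STAR and FDX1 were the least alike over the 54 libraries (0.162) and within GCs (0.158), but reached 0.671 within TCs. Within TCs the least alike pair was CYP11A1 and FDXR (0.582).

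Several of these genes are neighbours. ASH2L overlaps STAR by 61 bases on the opposite strand and DDHD2 lies 7756 bases from it, and GRIN2C lies 5053 bases from FDXR. ASH2L read 692, 781 and 766 FPKM in NC F1 GCs, against 58.5, 60.4 and 66.5 FPKM in NC F5 GCs. In bic F1 GCs it read 146, 139 and 145 FPKM. It therefore followed STAR across these groups at a lower level, and since the counting is not stated to use strand, reads in the shared stretch cannot be told apart. Coverage of the first exon over that of the last exon had a median of 0.233 for STAR, 1.19 for CYP11A1 and 1.65 for FDX1, so that STAR was read more at its end than at its start in all 54 libraries (0.0910 to 0.846). FDXR was split over 5 annotated transcripts whose estimated shares varied widely, 4.18% to 87.3% for the most frequent (median 41.0%, largest in 30 libraries), so only the summed FDXR level is used here.

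Genes that act before, beside and after the 4 were taken from lists and counted by the same test. The lists were chosen with earlier results of these data known, so the counts describe them and do not test them. Of 13 measured genes of cholesterol uptake, storage and transport, 9 rose, none fell and 4 did not pass in NC GCs at F1 over F5, with a median log2 change of 1.48, where 29.6% of all genes were called and 14% called higher. Among them were STARD5 (3.03), VDAC1 (3.37), STARD4 (2.05), SCARB1 (1.97), ACBD3 (1.62), NPC2 (1.48), ATAD3A (0.86) and STARD3 (0.85). SCARB1 is the receptor for high density lipoprotein and STARD4 a cholesterol carrier of the family of STAR. At F5 over 6 mm 4 of the 13 rose, NPC2 (4.04), STARD4 (2.06), SOAT1 (1.5) and LONP1 (1.38), and none fell, where 9.11% of all genes were called and 4.42% called higher. The F5 over 6 mm counts of this and the next lists include NC 6 mm libraries 1 and 3. Without them 1 hen is left at 6 mm and 0% of all genes were called, while NPC2 gave 3.32, NR5A1 2.84, HSD3B2 2.82, HSD17B1 -3.08 and AKR1D1 -5.96 (adjusted p 0.0936 to 0.362).

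In NC GCs at F5 over 6 mm, 9 genes of mitochondrial electron and NADPH supply or use were measured besides the members. Of these, 1 rose, FDX1L (4.93), and 3 fell, ME1 (-1.55), ME3 (-2.84) and CYP24A1 (-6.71). CYP24A1 and CYP27A1 are, like CYP11A1, P450 enzymes that take electrons and do not supply them. At F1 over F5, 1 of 8 rose, ME1 (2.36), and 2 fell, NNT (-2.20) and CYP27A1 (-1.04). NNT, the transhydrogenase that makes mitochondrial NADPH, had a mean of 3.23 FPKM at F1 and 20.8 FPKM at F5. The shares called, 4 of 9 and 3 of 8, stand beside 9.11% and 29.6% of all genes.

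Of 11 measured genes of the steps after pregnenolone, HSD3B2, which makes progesterone, rose in NC GCs at F5 over 6 mm (3.30, adjusted p = 0.0409) to a mean of 492 FPKM, against 63.2 FPKM at 6 mm. HSD17B1 (-4.13) and AKR1D1 (-6.04) fell. At F1 over F5, where 10 were measured, CYB5A rose (0.96) and CYP17A1, which turns progestins into androgens, fell (-2.86) between means of 0.0985 FPKM at F1 and 1.13 FPKM at F5. Of 15 measured regulators, 5 rose at F5 over 6 mm, NR5A2 (9.07), NR5A1 (3.07), LHCGR (2.59), FSHR (1.19) and PRKACB (0.82), and none fell. At this step 9.11% of all genes were called and 4.42% called higher. At F1 over F5, 4 rose, CREM (5.43), CEBPB (3.92), LHCGR (2.79) and GATA4 (0.94), and NR5A2 (-3.64) and PRKACA (-2.87) fell. At F1 over F5, 8 of 10 later-step genes and 9 of 15 regulators did not pass, where 29.6% of all genes were called and 14% called higher. These F1 over F5 counts are not read as a result about the lists. LHCGR had a mean of 302 FPKM in NC F1 GCs and 60.1 FPKM in NC F5 GCs, and NR5A1, steroidogenic factor 1, is the nuclear receptor known to drive STAR and CYP11A1 in mammals.

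In mes TCs at F1 over F5, the fall of STAR and CYP11A1 stood beside 4 lower and 1 higher of 13 cholesterol genes (among them SOAT1 -1.89, STARD4 -1.73, LONP1 -0.53 and NPC2 1.19), where 15.1% of all genes were called and 6.9% called lower. Of 8 genes of electron supply or use FDX1L (-6.49) and NNT (-0.67) fell and ME1 rose (0.95). Of 11 later steps CYP17A1 (-7.47) and POR (-0.99) fell. CYP17A1 had a mean of 5.54 FPKM in mes F1 TCs and 1043 FPKM in mes F5 TCs (SE 0.32, adjusted p = 0.00118). Of 15 regulators LHCGR (-3.35), NR5A1 (-1.53) and GATA4 (-0.54) fell and SP1 (0.87) and GATA6 (0.78) rose. For bic against NC in F1 GCs, the gene of these lists that passed was the transcription factor CEBPB, with a mean of 5.30 FPKM in bic GCs and 184 FPKM in NC GCs (-5.33 ± 0.40, 1 and 2 hens, adjusted p = 0.0498). In that comparison 1.17% of all genes were called.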

How the data were processed

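Per the methods, the authors extracted poly(A) RNA from separated follicle layers, sequenced 150-base read pairs, aligned them with HISAT2 2.1.0 to Gallus_gallus-5.0 and estimated abundance with StringTie 1.3.4d. The deposited counts are derived by the authors from coverage: for 216 of 216 member values and 99.981% of all genes they equal coverage times transcript length over 75, rounded up, so that 1 fragment can contribute as many as 4 counts and counts understate counting error. Deposited FPKM values per transcript were summed per gene. The deposited coverage values served to check this rule and, per exon, for the exon ratios of STAR, CYP11A1 and FDX1. The deposited TPM values served only as an alternative to FPKM. Genes without a symbol (907, never above 0.605% of a library's counts) were kept out of named results. No sequences are shown because the reference table is of another assembly.

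The 4 genes and all gene lists were chosen with earlier results of these data known. Tests were edgeR 4.0.16 quasi-likelihood F tests on the counts of the compared groups (R 4.3.3, TMM, filterByExpr), with Benjamini-Hochberg adjustment over all genes. Calls required adjusted p-values not above 0.05 together with a group mean of 1 FPKM or more. Libraries of the same hen and library number were summed. With counts divided by 4, the most that 1 fragment can give, their chi-square per degree of freedom was 1.16 to 1.44 in 5 pairs. In 49 other pairs it was 2.78 to 13.4. Genes with 10 to 500 counts in both libraries were used. On undivided counts these values would be larger. Hen numbers come from the deposited file names. Alternatives were DESeq2 1.42.0, limma-voom 3.58.1, 1 fit over all groups, RLE factors, no filter, a log2 minimum of 1.5, libraries as labelled, a hen block and each library left out. Library-size scaling, leaving out the TC libraries with high granulosa markers and list counts without doubted GC libraries were added after seeing the data. By these numbers, which no label gives, the same hens of a treatment gave its stages and layers, and the hen block rests on them. Between treatments the same number is a different bird, so there the block pairs unrelated hens and is not a hen block. Over 13212 genes, deviations of the same hen correlated at a median of 0.105 over 12 stage comparisons and 0.0737 over 7 layer comparisons, against -0.0705 and -0.0469 between hens, and every same-hen pair was over 0.1 in 4 of the stage and 1 of the layer comparisons. The test was checked on simulated counts. Named genes were the 4 members, the called genes of each list in the comparisons described and the 5 genes of highest Pearson r with each member. Some genes that this rule takes in are not reported here.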

Additional observations from a re-analysis of the deposited data

Results flagged for a closer look

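In 4 cases the F1 and F5 libraries did not overlap in either layer of a treatment, and GCs and TCs changed in opposite directions. The difference itself was not tested. The share of all genes with the same pattern was not counted, so these cases are a description only. The values are mean log2 changes of F1 over F5 in GCs, in TCs, and their difference. STAR in bic hens changed by 4.37 in GCs and -1.0 in TCs, a difference of 5.36. In mes hens STAR changed by 4.89 in GCs and -7.23 in TCs, a difference of 12.12, and CYP11A1 by 2.33 in GCs and -6.40 in TCs, a difference of 8.73. FDXR in mes hens changed by 0.99 in GCs and -0.72 in TCs, a difference of 1.71. The bic F1 GC libraries came from 1 hen, and bic F5 GC library 2 has markers of the theca. With 3 libraries a group, no library was tested for lying far from its group.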

How the results depend on the processing

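Of the 180 tests of the 4 genes over 45 comparisons 39 were called (STAR 12, CYP11A1 8, FDX1 8, FDXR 11), and 12 calls held under every alternative run for them: STAR F1 over F5 in NC GCs, CYP11A1 F1 over F5 in mes TCs, and, for GCs over TCs, FDX1 at NC F5, FDX1 and FDXR at bic F1, STAR and CYP11A1 at mes 6 mm, STAR, FDX1 and FDXR at mes F5, and CYP11A1 and FDXR at mes F1. Those at bic F1 rest on 1 GC hen, and for them no sample could be left out and no hen block fitted. With RLE factors all 82 results followed kept their direction and side of the threshold, and with no filter 81 did. With TPM in place of FPKM, only the mean log2 difference of F1 and F5 in NC GCs was recomputed for the 4 genes. No call was recomputed with TPM. Groups of 1 to 3 hens limit every test, and the cause of the changes listed here was not tested.

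Counts of calls for NC stages in GCs (7 of 12) were 11 with limma-voom and 4 with the replicate block, and 5 to 7 with a library left out. For bic stages in GCs (0 of 8) they were 1 with DESeq2, 3 with limma-voom, 2 without the GC libraries of high theca markers, 1 with libraries as labelled, and 0 to 1 with a library left out. For mes stages in GCs (7 of 8) the fit over all groups gave 2, and leaving out a library 4 to 7. For NC stages in TCs (0 of 12) DESeq2 gave 1, limma-voom 1, the fit over all groups 2, leaving out the TC libraries of high granulosa markers 2, and leaving out a library 0 to 4. For bic stages in TCs (0 of 8) DESeq2 gave 4, and limma-voom, the fit over all groups and libraries as labelled 2 each. For mes stages in TCs (4 of 8), leaving out a library gave 2 to 4. For bic against NC in GCs (1 of 12) the fit over all groups gave 0 and libraries as labelled 3. For mes against NC, DESeq2 gave 3 in GCs and 1 in TCs (0 of 12 each), the fit over all groups 1 in TCs, and leaving out a library 0 to 1 in GCs. For GCs against TCs, leaving out a library gave 4 to 8 in NC (6 of 12), 4 to 6 in bic (4 of 12) and 8 to 10 in mes (10 of 12), and in bic limma-voom gave 9 and leaving out the GC libraries of high theca markers 8. The 4 bic calls, all at F1, were carried over in these counts, since no sample could be left out there. Interactions (0 of 40) had 4 calls with DESeq2, 6 with limma-voom, 3 without those GC libraries, 2 without the TC libraries, and 0 to 4 with a library left out.

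Directions turned as follows. By library size, FDXR F1 over F5 in NC GCs was -0.025, FDX1 F1 over 6 mm in NC GCs -0.053 and CYP11A1 bic over NC in F1 GCs 0.049. STAR F5 over 6 mm in bic GCs was 0.62 with limma-voom and 3.76 without the GC libraries of high theca markers. STAR F1 over F5 in NC TCs was -3.55 with limma-voom, -4.99 without the TC libraries of high granulosa markers, -3.70 with the replicate block and -5.06 to 1.32 with a library left out, lowest without NC F1 TC library 1. STAR F1 over 6 mm in NC TCs was -3.26, -4.73, -3.30 and -4.73 to 1.63 in the same settings. STAR bic over NC in F1 TCs was 2.99, 4.68, 0.89 and -1.73 to 4.68. Its replicate block (0.89) paired different birds by their number and is not a check. CYP11A1 F1 over 6 mm in NC TCs was -1.96 to 0.19 with a library left out. For GCs over TCs in NC F1, where hen 1 has no GC library, the replicate block sets TC library 1 aside. The replicate block also moved GCs over TCs in NC F1 to 9.26 for STAR and 4.85 for CYP11A1 and lost the FDX1 call there (0.99, adjusted p = 0.0921) and the FDX1 call of F1 over F5 in mes TCs (-0.41, adjusted p = 0.0622). Beside these and the losses given in the report it changed no other call or direction, and it could not be fitted where groups share fewer than 2 hen numbers.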
